A study of Mus musculus with 12 samples.

Results

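The genes Cd40, Cd80, Cd83, Cd86 and Cd274, which encode costimulatory molecules of antigen-presenting cells and the checkpoint ligand PD-L1, were followed in mouse bone-marrow neutrophils with and without the GTPase Rab27a. They were taken as a list of named genes, chosen with earlier results of these data known, and are 5 of the 15986 genes in the deposited tables. All 5 were among the 10802 genes that passed a filter on low counts. Mature neutrophils were taken from the bone marrow of C57BL/6 wild-type mice and of RAB27aKO (Rab27a knockout) mice with the same strain label, by positive selection on beads against Ly6G, a surface protein of mouse neutrophils. Cells of each genotype were kept at 37C for 6 h with 5 µM CpG-B (ODN 1826), a synthetic oligodeoxynucleotide recognised by the endosomal receptor TLR9, or without it, a condition the labels name both vehicle and untreated. PolyA RNA was sequenced from 3 libraries in each of the 4 groups, 12 in all. The sources used here give neither the Rab27a allele nor whether the libraries of a group came from separate animals. A p-value therefore measures the spread between these libraries only, which may be technical.

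T cells that recognise an antigen also read costimulatory and inhibitory signals on the cell that presents it. CD80 and CD86 bind the activating receptor CD28 and the inhibitory receptor CTLA-4, CD40 is a TNF-receptor family member that receives CD40 ligand and signals through TRAF adaptors to NF-kB, CD83 marks mature dendritic cells and slows the removal of CD86 and MHC class II from the surface, and PD-L1, encoded by Cd274, engages PD-1 and restrains T cells. TLR ligands raise several of these molecules on dendritic cells and B cells, and neutrophils are better known for PD-L1 under inflammation than for costimulation.

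Library totals ran from 10928813 to 15513279 estimated counts. Rab27a RNA was lower in the knockout but present, at 272 ± 54.9 (SD, n = 3) CPM (counts scaled to library size) without and 236 ± 42.9 with CpG in wild-type cells, and at 113 ± 17.4 and 107 ± 9.78 in the knockout, with every knockout library below every wild-type one. All 12 neutrophil markers examined, among them Ly6g, Cxcr2 and S100a9, were detected, and they summed to 70800 to 111000 CPM per library with no marker called in any comparison. Of all genes tested, 0% to 11.6% were called, depending on the comparison, so few calls would be met among 12 genes of any kind. RNA of other cell types was present too. Erythroid and platelet markers summed to 2840 to 3740 CPM in wild-type and 323 to 4530 CPM in knockout libraries. Eosinophil, basophil and mast cell markers summed to 20.2 to 69.9 CPM. T-cell and NK-cell markers summed to 7.16 to 11.1 CPM in wild-type and 81.7 to 157 CPM in knockout libraries. That gap lay mostly in Cd3d, the most abundant, at 3.11 to 6.53 CPM in wild-type and 75.7 to 153 CPM in knockout libraries. Cd3e was at most 0.391 and Cd3g at most 1.23 CPM in any library. Of the 5 tested, only Cd3d was called between genotypes, beside 4.75% of all genes called without stimulus and 3.92% with CpG. B-cell, monocyte and dendritic cell markers are given beside the results they moved with. In RNA from a whole cell preparation, fewer cells of a type and less RNA per cell cannot be told apart.

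CpG raised Cd40, Cd83 and Cd274 in both genotypes. In wild-type cells Cd40 was 14-fold, Cd83 4.18-fold and Cd274 2.34-fold higher with CpG, and in knockout cells 17.2-fold, 3.62-fold and 2.43-fold higher. Cd80 did not pass the test in either genotype. Cd86 fell 1.82-fold in the knockout and did not pass in wild-type cells. A gene is called here at a Benjamini-Hochberg adjusted p of at most 0.05 over all genes tested, from edgeR's quasi-likelihood test fitted to all 12 libraries. With 3 of 5 higher in wild-type cells, the background was 6.04% of all genes tested called, 4.74% higher and 1.3% lower. With 3 of 5 higher and 1 lower in the knockout, the background was 11.6%, with 7.57% higher and 4.06% lower. The median log2 fold change of the 5 genes was 1.23 in wild-type and 1.28 in knockout cells, beside -0.01 over all genes tested in each.

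**Figure D1:**
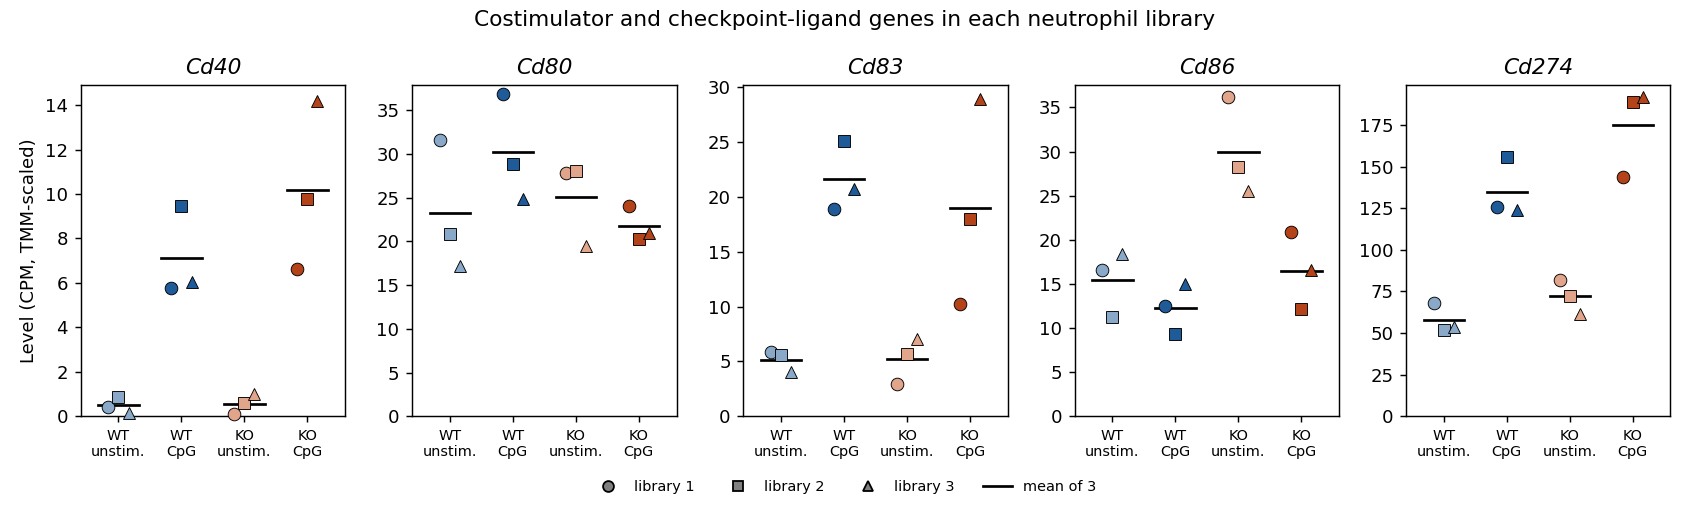
Level of each gene (vertical axes, CPM after TMM scaling, each panel on its own scale from 0) in the 3 libraries of each group, with WT for wild-type, KO for Rab27a knockout, symbols for the library number and a bar at the mean of 3. Cd40, Cd83 and Cd274 lie higher with CpG in every library of both genotypes, and the unstimulated knockout libraries hold the 3 highest values of Cd86.

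Cd40, the receptor for CD40 ligand, was close to undetected without stimulus. Unstimulated wild-type libraries 1, 2 and 3 held 5, 12 and 2 counts (0.427, 0.881 and 0.16 CPM), and unstimulated knockout libraries held 1, 7 and 12 (0.0945, 0.615 and 1.01 CPM). With CpG the wild-type libraries stood at 5.78, 9.48 and 6.05 CPM and the knockout libraries at 6.63, 9.77 and 14.2 CPM. Each CpG library of either genotype was above every unstimulated library. Cd40 passed the filter on low counts only through its CpG-treated libraries, so its rise with CpG is not independent of that filter. Of all genes tested, 25.7% in wild-type and 24.2% in knockout cells had CpG and unstimulated libraries that did not overlap, in either direction. The log2 fold change was 3.81 (SE 0.54, 95% interval 2.64 to 4.97, adjusted p = 0.000518 in edgeR's quasi-likelihood test) in wild-type and 4.11 (SE 0.53, interval 2.96 to 5.25, adjusted p = 0.000149) in knockout cells, and the width of these intervals goes with the few counts at baseline.

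Cd83, the maturation marker, was measurable in all unstimulated libraries, at 5.89, 5.58 and 4.01 CPM in wild-type and 2.93, 5.71 and 7.04 CPM in knockout cells. With CpG it stood at 18.9, 25.1 and 20.7 CPM in wild-type and at 10.2, 18 and 28.9 CPM in knockout libraries. The CpG groups did not overlap the unstimulated ones, and the knockout libraries spread almost 3 times as far as the wild-type ones (SD 9.37 against 3.17 CPM). The log2 fold change was 2.06 (SE 0.35, interval 1.31 to 2.82, adjusted p = 0.00232) in wild-type and 1.86 (SE 0.35, interval 1.1 to 2.62, adjusted p = 0.00309) in knockout cells.

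Both genes are also expressed by B cells, and RNA of 11 B-cell markers differed widely between the knockout libraries. Their sum was 31.2 to 40.1 CPM in unstimulated and 42.2 to 52.3 CPM in CpG-treated wild-type libraries. In knockout libraries 1, 2 and 3 it was 8.23, 33.7 and 102 CPM without stimulus and 9.86, 39.3 and 116 CPM with CpG, which is the order of Cd40 and of Cd83 in the same libraries. Erythroid and platelet markers (323, 1360 and 4370 CPM without and 385, 1220 and 4530 CPM with CpG) and eosinophil, basophil and mast cell markers (20.2, 23.5 and 56.4 CPM without and 22.4, 32.3 and 69.9 CPM with CpG) had the same order in the knockout. None of the 11 was at 0 in all libraries, and of the 9 tested none was called in any comparison. Over all genes tested, 0% to 11.6% were called, depending on the comparison. In knockout library 1, where these markers were lowest, Cd40 went from 1 to 76 counts and Cd83 from 2.93 to 10.2 CPM with CpG, while the marker sum went from 8.23 to 9.86 CPM. Without both knockout libraries numbered 3, where the markers were highest, the knockout log2 fold change with CpG was 4.45 for Cd40 and 1.69 for Cd83, and without both numbered 1 it was 3.85 and 1.86, with each still called. The part of RNA from these cell types in the spread of Cd40 and Cd83 among knockout libraries was not tested.

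**Figure D2:**
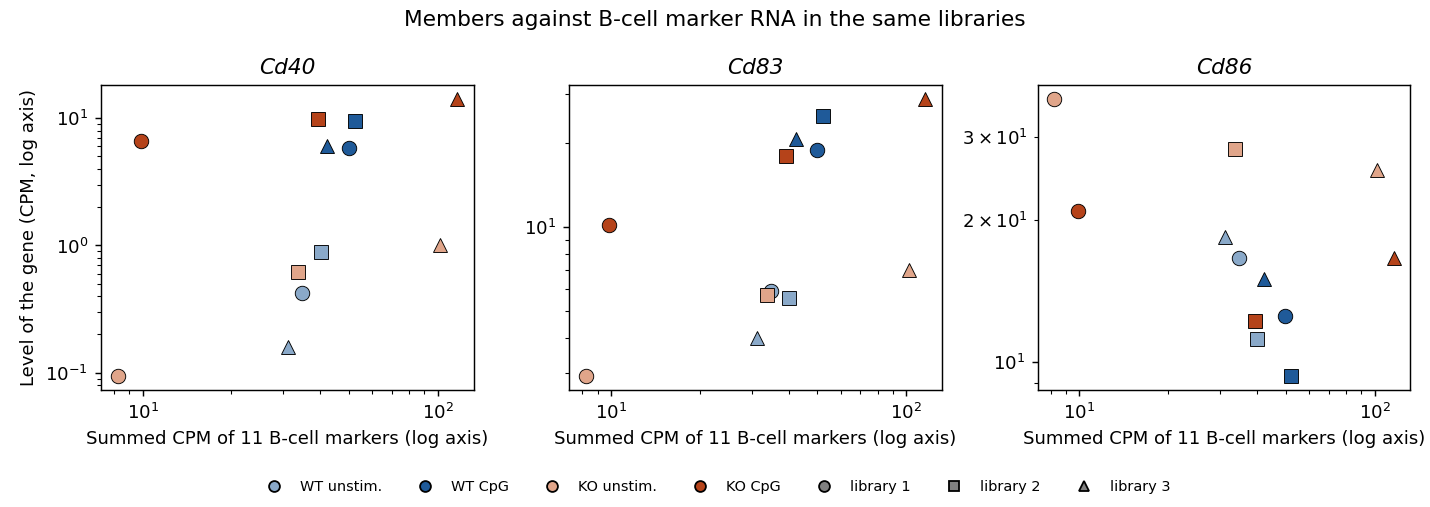
Level of Cd40, Cd83 and Cd86 (vertical, CPM, log axis) against the summed level of 11 B-cell markers (horizontal, CPM, log axis) in the 12 libraries, coloured by group with symbols for the library number. Within each knockout group Cd40 and Cd83 have the same order as the markers, and for these 2 genes the CpG libraries of both genotypes lie above the unstimulated ones, also in knockout library 1 with marker sums of 8.23 and 9.86 CPM.

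Cd274, which encodes PD-L1, had the highest level per transcript length of the 5 genes in every group. Unstimulated libraries stood at 67.9, 52.1 and 53.5 CPM in wild-type and 81.9, 72.5 and 61.5 CPM in knockout cells. With CpG they reached 126, 156 and 124 CPM in wild-type and 144, 189 and 192 CPM in knockout cells. Every CpG library exceeded every unstimulated one. The log2 fold change was 1.23 (SE 0.16, interval 0.89 to 1.56, adjusted p = 0.000216) in wild-type and 1.28 (SE 0.16, interval 0.95 to 1.62, adjusted p = 8.71e-05) in knockout cells, so these were the narrowest intervals among the 5 genes.

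The summed RNA of monocyte and macrophage markers rose with CpG too, but not that of each marker. The sum over 14 markers was 903 to 919 CPM in unstimulated and 1360 to 1410 CPM in CpG-treated wild-type libraries, and 704 to 770 and 1370 to 1800 CPM in the knockout. Csf1r, the receptor of macrophage colony-stimulating factor, was the most abundant, at 183 to 204 CPM without and 530 to 582 CPM with CpG in wild-type cells. With Adgre1 and Spic it rose in both genotypes, while 11 of the 14 were not called in wild-type and 10 not in knockout cells. The background was 6.04% and 11.6% of all genes tested called. Some of these were lower with CpG, as F13a1 in wild-type cells (25.9 to 38.1 CPM without and 17.9 to 19.5 CPM with CpG) and Ccr2 (7.59 to 13 and 4.06 to 4.8 CPM). The median log2 fold change of the 14 was 0.11 in wild-type and 0.44 in knockout cells. Between genotypes Spic was called lower in the knockout in both treatments, and Csf1r higher with CpG (693 to 945 CPM in the knockout). No other marker of the 14 was called there, beside 4.75% of all genes called without stimulus and 3.92% with CpG. Dendritic cell markers, of which Itgax was the most abundant, summed to 120 to 158, 128 to 151, 140 to 157 and 119 to 162 CPM in unstimulated and CpG-treated wild-type and unstimulated and CpG-treated knockout libraries. Zbtb46, Ccr7 and Bst2 rose with CpG in the knockout (log2 2.38, 2.35 and 2.13, adjusted p = 0.0156, 0.0306 and 0.00693), and in wild-type cells none of the 8 tested was called. Of all genes tested, 11.6% were called in knockout and 6.04% in wild-type cells. The wild-type libraries of Zbtb46, Ccr7 and Bst2 also did not overlap between treatments, as for 25.7% of all genes tested. Their wild-type log2 fold changes were 1.78 (adjusted p = 0.142), 2.13 (adjusted p = 0.074) and 1.17 (adjusted p = 0.176). Ccr7, the homing receptor of mature dendritic cells and lymphocytes, stood at 2.56, 4.26 and 3.29 CPM without and 14.4, 16.7 and 13.4 CPM with CpG in wild-type libraries, and at 0.756, 2.99 and 6.03 CPM without and 3.4, 16.3 and 30.8 CPM with CpG in knockout libraries, which overlapped. None of the 12 markers was at 0 in all libraries. The part of monocyte and dendritic cell RNA in the rises of Cd40, Cd83 and Cd274 was not tested.

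Cd80, a ligand of CD28 and CTLA-4, was expressed without stimulus at 31.6, 20.9 and 17.2 CPM in wild-type and 27.8, 28.1 and 19.5 CPM in knockout cells. With CpG it stood at 36.9, 28.9 and 24.8 CPM in wild-type and at 24.1, 20.3 and 21 CPM in knockout cells. CpG-treated and unstimulated libraries overlapped in both genotypes. The log2 fold change was 0.38 (SE 0.22, interval -0.08 to 0.85, adjusted p = 0.443) in wild-type and -0.21 (SE 0.22, interval -0.68 to 0.27, adjusted p = 0.68) in knockout cells. With the same-numbered wild-type libraries paired by a block within genotype, Cd80 was higher with CpG in 3 of 3 pairs and its log2 fold change of 0.40 (SE 0.12) passed, at an adjusted p of 0.0353.

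Cd86, the other ligand of CD28 and CTLA-4, moved the opposite way to Cd40, Cd83 and Cd274 in the knockout. Unstimulated knockout libraries stood at 36.2, 28.3 and 25.5 CPM and the CpG-treated ones at 20.9, 12.2 and 16.6 CPM, without overlap. Wild-type libraries stood at 16.6, 11.2 and 18.4 CPM without stimulus and 12.5, 9.33 and 15 CPM with CpG, and overlapped. The log2 fold change with CpG was -0.86 (SE 0.24, interval -1.37 to -0.35, adjusted p = 0.0296) in the knockout and -0.33 (SE 0.24, interval -0.85 to 0.19, adjusted p = 0.612) in wild-type cells. The knockout call was lost in 4 of the 12 fits that left out 1 library, with adjusted p = 0.134 without unstimulated knockout 1, 0.0704 without unstimulated knockout 2, 0.11 without CpG-treated knockout 2 and 0.0621 without CpG-treated knockout 3. Without both knockout libraries numbered 2 the log2 fold change was -0.72 (adjusted p = 0.212), and without both numbered 3 it was -0.99 (adjusted p = 0.0648).

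The CpG effect was not shown to differ between genotypes for any of the 5 genes. The interaction, the knockout effect minus the wild-type effect on the log2 scale, was 0.30 (interval -1.46 to 2.06) for Cd40, -0.59 (-1.25 to 0.08) for Cd80, -0.21 (-1.27 to 0.85) for Cd83, -0.53 (-1.26 to 0.19) for Cd86 and 0.06 (-0.41 to 0.53) for Cd274. Each had an adjusted p of 1 in edgeR's quasi-likelihood test. The background was 0% of all genes tested, with 365 genes at an unadjusted p under 0.05 and 2 called by DESeq2. For Cd40 these intervals still allow effects several-fold apart, and for Cd274 a difference of at most 0.53 log2 units in either direction.

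**Figure D3:**
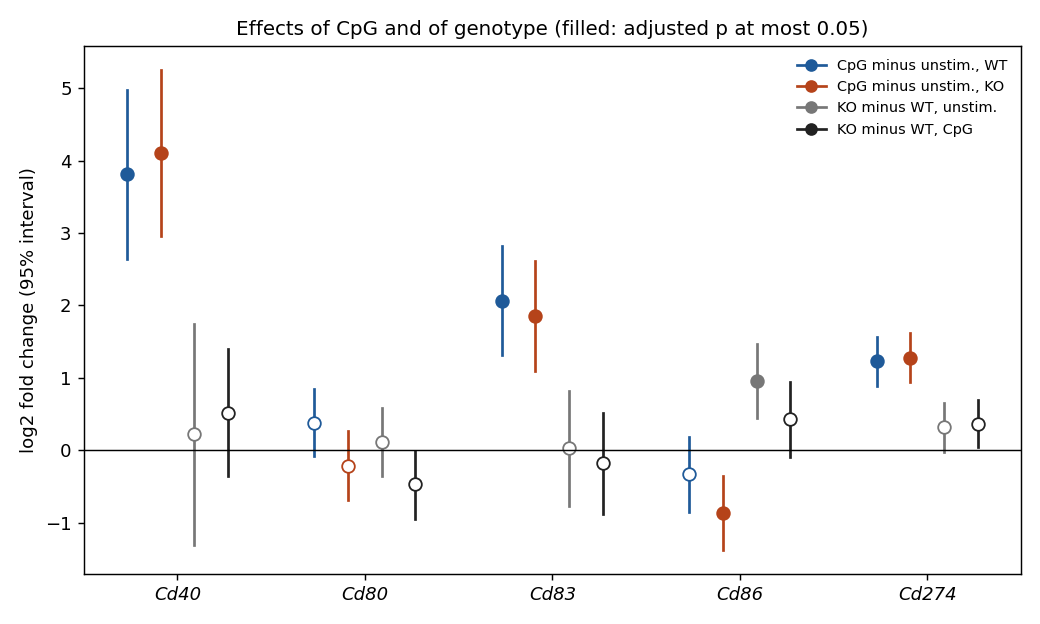
Log2 fold change (vertical axis) of each gene in the 2 CpG comparisons and the 2 genotype comparisons, as points with 95% intervals from the edgeR fit to 12 libraries, filled where the adjusted p is at most 0.05. The CpG effects on Cd40, Cd83 and Cd274 are filled and above 0 in both genotypes, and the filled points of Cd86 lie on opposite sides of 0, at 0.96 for knockout minus wild-type without stimulus and at -0.86 for CpG in the knockout.

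Between genotypes, only Cd86 of the 5 genes passed the test, and only in unstimulated cells. Its 3 unstimulated knockout libraries (25.5 to 36.2 CPM) lay above all 9 other libraries, whose highest value was 20.9 CPM. The mean was 30 ± 5.52 CPM in unstimulated knockout and 15.4 ± 3.79 CPM in unstimulated wild-type cells (SD, n = 3), 1.95-fold higher in the knockout (log2 0.96, SE 0.24, interval 0.45 to 1.47, adjusted p = 0.033). Beside this 1 of 5, the background was 4.75% of all genes tested called, 2.11% higher and 2.64% lower, and 25% had 3 libraries of 1 genotype entirely above or below the other. This comparison and the CpG comparison of the knockout share the 3 unstimulated knockout libraries. In unstimulated knockout libraries 1, 2 and 3, with B-cell marker sums of 8.23, 33.7 and 102 CPM, Cd86 stood at 36.2, 28.3 and 25.5 CPM, and the part of other cells' RNA in this difference was not tested. The call was lost in 4 of the 12 fits that left out 1 library, with adjusted p = 0.0734 without unstimulated wild-type 1, 0.092 without unstimulated wild-type 2, 0.157 without unstimulated knockout 1 and 0.0894 without unstimulated knockout 2. On curated transcripts alone the log2 difference was 1.01 (adjusted p = 0.0536), and without both knockout libraries numbered 1 or 2 it was 0.83 (adjusted p = 0.0946) or 1.00 (adjusted p = 0.0712).

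The other 4 genes did not pass between genotypes in either treatment. Without stimulus the knockout minus wild-type difference was 0.23 (interval -1.3 to 1.75) for Cd40, 0.11 (-0.36 to 0.58) for Cd80, 0.03 (-0.77 to 0.82) for Cd83 and 0.32 (-0.02 to 0.65) for Cd274. With CpG none of the 5 was called, beside a background of 3.92% of all genes tested, 1.7% higher and 2.21% lower. Cd274 was 0.37 log2 units higher in the knockout (interval 0.04 to 0.7, unadjusted p = 0.0299, adjusted p = 0.215), with overlapping libraries. Cd80 was 0.47 log2 units lower on the same scale (log2 -0.47, interval -0.94 to -0.01, unadjusted p = 0.0473, adjusted p = 0.268), with the 3 knockout libraries (20.3 to 24.1 CPM) below the 3 wild-type ones (24.8 to 36.9 CPM). Of all genes tested, 20.4% had 3 libraries of 1 genotype entirely above or below the other with CpG. Cd40 (0.52, interval -0.35 to 1.4), Cd83 (-0.18, -0.88 to 0.52) and Cd86 (0.43, -0.09 to 0.95) did not pass.

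Levels were compared between genes in TPM, a unit that corrects for transcript length and library size. In unstimulated wild-type cells Cd274 stood at 22.1 ± 3.59 TPM (SD, n = 3), followed by Cd80 at 13.3 ± 3.8, Cd86 at 8.66 ± 1.89, Cd83 at 3.54 ± 0.785 and Cd40 at 0.45 ± 0.344. The libraries of Cd80 and Cd86 overlapped and the other neighbours did not. With CpG the wild-type order was Cd274 (51.8 ± 9.13), Cd80 (17.4 ± 4.67), Cd83 (14.8 ± 2.66), Cd86 (6.88 ± 1.26) and Cd40 (6.46 ± 2.18), with overlap between Cd80 and Cd83 and between Cd86 and Cd40. In unstimulated knockout cells Cd274 (29.6 ± 3.18) was followed by Cd86 (18.3 ± 2.97) and Cd80 (15.8 ± 1.56), which overlapped, then by Cd83 (3.9 ± 1.7) and Cd40 (0.577 ± 0.496). In CpG-treated knockout cells only Cd274 (66.5 ± 14.4) stood apart, and Cd83 (13.3 ± 7.35), Cd80 (12.8 ± 0.551), Cd40 (9.47 ± 4.11) and Cd86 (9.24 ± 2.04) overlapped as neighbours.

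**Figure D4:**
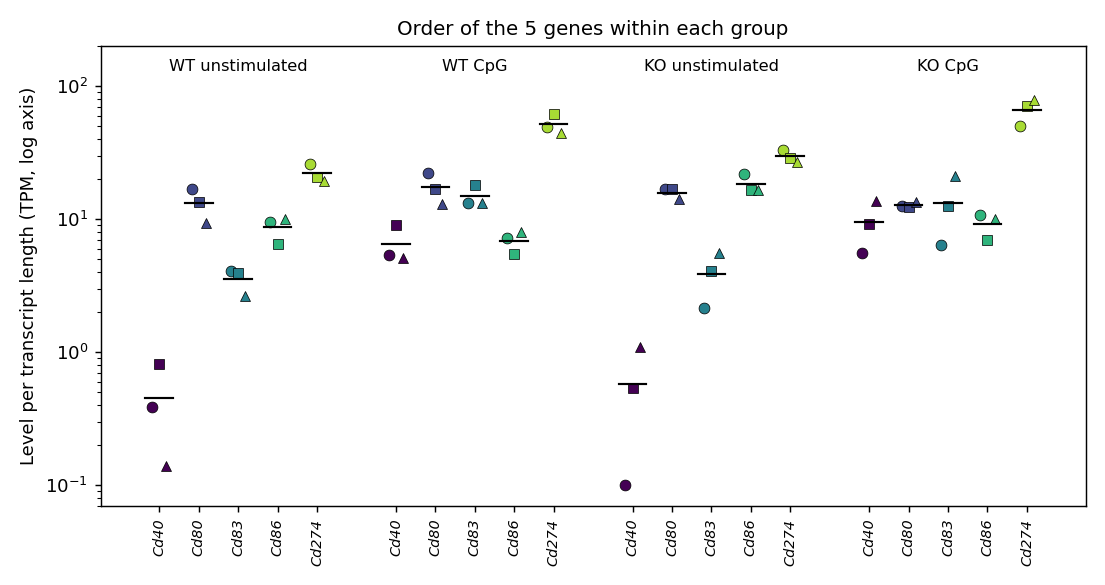
TPM (vertical, log axis) of the 5 genes in the libraries of each group, with circles, squares and triangles for libraries 1, 2 and 3 and bars at the mean. Cd274 is highest in all 4 groups, from 22.1 to 66.5 TPM on average, and Cd40 moves from below 1.1 TPM in the unstimulated libraries to the range of Cd86 with CpG.

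The balance of PD-L1 to CD28-ligand RNA is given by ratios within each library. The ratio of Cd274 to Cd86 in TPM was 2.62 ± 0.622 in unstimulated and 7.88 ± 3 in CpG-treated wild-type cells, and 1.62 ± 0.103 and 7.58 ± 2.82 in the knockout. The ratio of Cd274 to Cd80 was 1.71 ± 0.313 and 3.09 ± 0.778 in wild-type and 1.87 ± 0.138 and 5.18 ± 1.01 in knockout cells. With all transcripts counted, in each genotype every CpG library exceeded every unstimulated one in both ratios. Cd86 to Cd80 stood at 0.702 ± 0.318, 0.419 ± 0.165, 1.16 ± 0.155 and 0.721 ± 0.154 in the same order of groups. On curated transcripts alone it stood at 1.76 ± 0.825, 1.05 ± 0.422, 2.6 ± 0.472 and 1.89 ± 0.49. Which of Cd86 and Cd80 had the higher mean TPM depended on the transcripts counted in unstimulated wild-type and CpG-treated knockout cells. In unstimulated knockout cells Cd86 was higher both ways. In CpG-treated wild-type cells Cd80 was higher both ways, by little on curated transcripts (6.97 ± 2.23 against 6.82 ± 1.24 TPM). Cd274 to Cd80 was 3.59 ± 1.42, 6.42 ± 2.01, 3.71 ± 0.336 and 11.5 ± 1.94 on curated transcripts, with overlap between the treatments in wild-type cells. These ratios are descriptions and were not tested.

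Most of each gene's counts fell on 1 transcript, and for Cd80 that was a predicted one. Over all libraries 1 curated transcript took 82.2% of the counts of Cd40, 93.1% of Cd83, 99.3% of Cd86 and 84% of Cd274, while for Cd80 a predicted transcript took 72.2% and the curated one 26.6%. The share of the curated Cd80 transcript was 26.8, 25.7, 29.2 and 25.1% in unstimulated and CpG-treated wild-type and unstimulated and CpG-treated knockout cells. For Cd274 a predicted transcript held 16.8 and 15% of the counts in wild-type and 8.7 and 10.4% in knockout cells, and its range over libraries overlapped between genotypes in each treatment. With curated transcripts alone, the TPM rank of a gene within its group changed in 6 of 20 cases, all of them Cd80, Cd83 or Cd86.

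The sequence just before 1 transcription start is shown for each of the 2 genes with the highest TPM in unstimulated wild-type cells. These are Cd274, which rose with CpG, and Cd80, which did not pass. Both are the 250 bases upstream of a start in RefSeq (build GRCm38.p6, plus strand), chr19:29367188-29367437 for Cd274 and chr16:38458683-38458932 for Cd80. Both windows lie inside the annotated genes, which begin further upstream, at 29362107 for Cd274 and 38457430 for Cd80. Whether the transcripts with most counts begin at the starts shown was not examined. Capitals mark matches to a motif.
Cd274: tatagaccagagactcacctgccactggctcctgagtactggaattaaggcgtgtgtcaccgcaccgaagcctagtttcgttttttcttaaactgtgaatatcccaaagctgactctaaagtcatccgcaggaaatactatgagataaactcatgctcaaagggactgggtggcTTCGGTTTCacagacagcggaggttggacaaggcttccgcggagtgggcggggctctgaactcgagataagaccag
Cd80: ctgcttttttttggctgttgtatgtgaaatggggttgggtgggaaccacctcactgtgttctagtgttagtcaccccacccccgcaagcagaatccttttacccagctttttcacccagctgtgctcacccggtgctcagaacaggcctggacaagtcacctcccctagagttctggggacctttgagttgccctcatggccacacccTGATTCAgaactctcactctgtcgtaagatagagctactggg
Both strands of each were searched for the kappaB consensus, the interferon regulatory factor type TTCNNTTTC, the STAT type TTCNNNGAA and the AP-1 type TGANTCA. Cd274 held 1 match, TTCGGTTTC of the interferon regulatory factor type, at bases -76 to -68 from the start. Cd80 held 1 match, TGATTCA of the AP-1 type, at bases -42 to -36. The matches do not overlap another motif searched. Of 32851 upstream windows of this length, 7.13% held the interferon regulatory factor type, 6.75% the AP-1 type, 7.25% the kappaB consensus and 7.02% the STAT type. A match is a description of letters, and its use in these cells was not measured.

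The genes nearest in expression pattern were different ones for each of the 5. Likeness was Pearson's r of log2 CPM over the 12 libraries, searched among about 7900 tested genes of at least 5 CPM and given as a description without a test. The nearest to Cd40 were Nlrc4, an inflammasome sensor gene, the chemokine-binding receptor gene Ccrl2 and the survival gene Bcl2a1b (r = 0.98 each). Those nearest to Cd83 were Nrp2 (0.98), which encodes a semaphorin and VEGF co-receptor, the chemokine gene Cxcl16 (0.97) and the surface receptor gene Slamf7 (0.97). Cd274 ran with the NF-kB subunit gene Rel, the signalling protease gene Malt1 and the transcriptional co-repressor gene Nab1 (0.98 each). The nearest to Cd80 were Zfp51 (0.89), Arl14ep (0.83) and Ifrd1 (0.83), and the nearest to Cd86 were a gene without a symbol in the annotation used (0.94), Armc8 (0.93) and A530032D15Rik (0.93). Among the 5 genes themselves r was 0.96 between Cd40 and Cd83, 0.88 between Cd40 and Cd274 and 0.85 between Cd83 and Cd274. It was -0.60, -0.64 and -0.37 between Cd86 and Cd40, Cd83 and Cd274, and between -0.06 and 0.18 for Cd80 with each of the others. The 12 points share 4 groups and the CpG treatment.

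Other costimulatory ligands split in direction. Of 13 listed genes 7 were tested, and in each genotype 2 rose and 1 fell, beside 6.04% of all genes called in wild-type and 11.6% in knockout cells. The median log2 fold change was 0.76 in wild-type and 0.29 in knockout cells, against -0.01 over all genes in each comparison. Icam1, the adhesion ligand of LFA-1, went from 6.87 ± 0.959 to 163 ± 49 CPM in wild-type and from 5.53 ± 1.17 to 258 ± 35.9 CPM in knockout cells (log2 4.57, SE 0.23, and 5.53, SE 0.25). Icosl, the ligand of the costimulatory receptor ICOS, rose by 0.76 (SE 0.14) and 1.12 (SE 0.14) log2 units. Tnfsf14, which encodes the TNF-family ligand LIGHT, fell by 1.12 (SE 0.22) and 1.27 (SE 0.22) log2 units. Without both knockout libraries numbered 2 the fall of Tnfsf14 in the knockout had an adjusted p of 0.0507.

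Checkpoint ligands and inhibitory surface molecules other than Cd274 mostly did not pass. Of 21 listed 11 were tested, none was called in wild-type cells and 1 rose in the knockout, beside 6.04% and 11.6% of all genes called, with medians of -0.06 and 0.01. The gene called was Tnfrsf14, which encodes HVEM, the receptor of LIGHT and ligand of BTLA. It stood at 68.6 ± 10.8 and 131 ± 24 CPM in the knockout (log2 0.93, SE 0.22, adjusted p = 0.0139) and at 79.7 ± 23.9 and 128 ± 25.5 CPM in wild-type cells (log2 0.68, SE 0.22, adjusted p = 0.101). With wild-type libraries paired its wild-type value passed (0.71, adjusted p = 0.000914). The knockout call was lost without unstimulated knockout 2 or 3 or CpG-treated knockout 2 (adjusted p up to 0.071), without both numbered 2 (0.199) and on curated transcripts alone (0.488), where the wild-type value was -0.09. Pvr, which encodes the ligand of TIGIT and CD226, had log2 fold changes of 0.61 (adjusted p = 0.419) in wild-type and 0.92 (adjusted p = 0.121) in knockout cells. The non-classical MHC class I gene H2-Q7, whose reads near-identical relatives can share, had 1.22 (adjusted p = 0.0687) and 1.02 (adjusted p = 0.0801), and 1.24 (adjusted p = 0.00496) with wild-type libraries paired. Alternatives called H2-Q7 higher in 6 and not in 15 cases for wild-type cells, and in 4 and not in 20 for the knockout.

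PD-L2, the other ligand of PD-1, was not called with CpG in either genotype. Its gene Pdcd1lg2, singled out after its values were seen, stood at 27.7 ± 8.08 and 33.8 ± 6.83 CPM in unstimulated and CpG-treated wild-type cells and 29.8 ± 0.686 and 19.9 ± 4.35 CPM in the knockout. The CpG effect was 0.29 (SE 0.22, adjusted p = 0.615) in wild-type and -0.58 (SE 0.22, adjusted p = 0.122) in knockout cells. Of the 4 receptors that T cells use for these ligands, Cd28 alone passed the filter, at 2.38 to 3.39 CPM on average in the 4 groups, and it was not called in any comparison.

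Genes listed for CD40 signalling and NF-kB rose with CpG or did not pass. The list is not limited to the alternative NF-kB pathway, as Nfkb1, Rel, Rela and Tnfaip3 are among its genes that rose in both genotypes. Of 19 listed and tested, 10 rose in wild-type and 11 in knockout cells and none fell, beside 4.74% and 7.57% of all genes called higher. The medians were 0.65 and 0.72. Traf1, an adaptor of TNF-family receptors, rose by 3.81 (SE 0.20) and 4.48 (SE 0.21) log2 units. Relb and Nfkb2, the 2 subunits of the alternative NF-kB dimer, rose by 2.69 (SE 0.13) and 2.54 (SE 0.13) in wild-type and by 3.19 (SE 0.14) and 2.82 (SE 0.13) in knockout cells. Birc3, the ubiquitin ligase that restrains this pathway, rose by 2.05 (SE 0.10) and 2.53 (SE 0.11). Between genotypes Relb was lower in unstimulated knockout cells (-0.51, SE 0.13, adjusted p = 0.0389) and Nfkb2 higher in CpG-treated ones (0.53, SE 0.12, adjusted p = 0.0259). The Relb call was lost in 8 of 12 fits without 1 library (adjusted p up to 0.141, without unstimulated wild-type 3), and on curated transcripts its value was 0.02. The Nfkb2 call was lost without CpG-treated wild-type 1 (0.16) or 3 or CpG-treated knockout 2, and in a fit of only the libraries compared (0.136).

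Of 14 genes listed for the control of PD-L1, 7 rose in wild-type and 8 in knockout cells, with none lower, beside 4.74% and 7.57% of all genes called higher. The list was not limited to genes that act on PD-L1 in 1 direction. The medians were 0.52 and 0.80. Irf1, the transcription factor through which interferon-gamma induces PD-L1, rose by 0.68 (SE 0.19, adjusted p = 0.0482) and 1.55 (SE 0.19, adjusted p = 9.84e-05). Nlrc5, a transactivator of MHC class I genes, rose by 1.31 (SE 0.20) and 1.53 (SE 0.20), but its wild-type value was -1.26 (adjusted p = 0.906) on curated transcripts alone. The knockout call of Nlrc5 was lost in 1 alternative and kept in 23. Irf2 had a CpG effect of 0.91 (SE 0.20, adjusted p = 0.00741) in knockout and 0.23 (SE 0.20, adjusted p = 0.697) in wild-type cells, which were not shown to differ (interaction 0.69, SE 0.28, adjusted p = 1). With CpG it was higher in knockout than in wild-type cells (0.80, SE 0.20, adjusted p = 0.0395). In wild-type cells the Irf1 call was lost in 8 of 12 fits without 1 library (adjusted p up to 0.18, without unstimulated wild-type 2). Over all alternatives that call was lost in 12 and kept in 9. The genotype call of Irf2 was lost without any 1 of the CpG-treated wild-type libraries or unstimulated knockout 2 (up to 0.172). Over all alternatives this Irf2 call was lost in 8 and kept in 15.

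**Figure D5:**
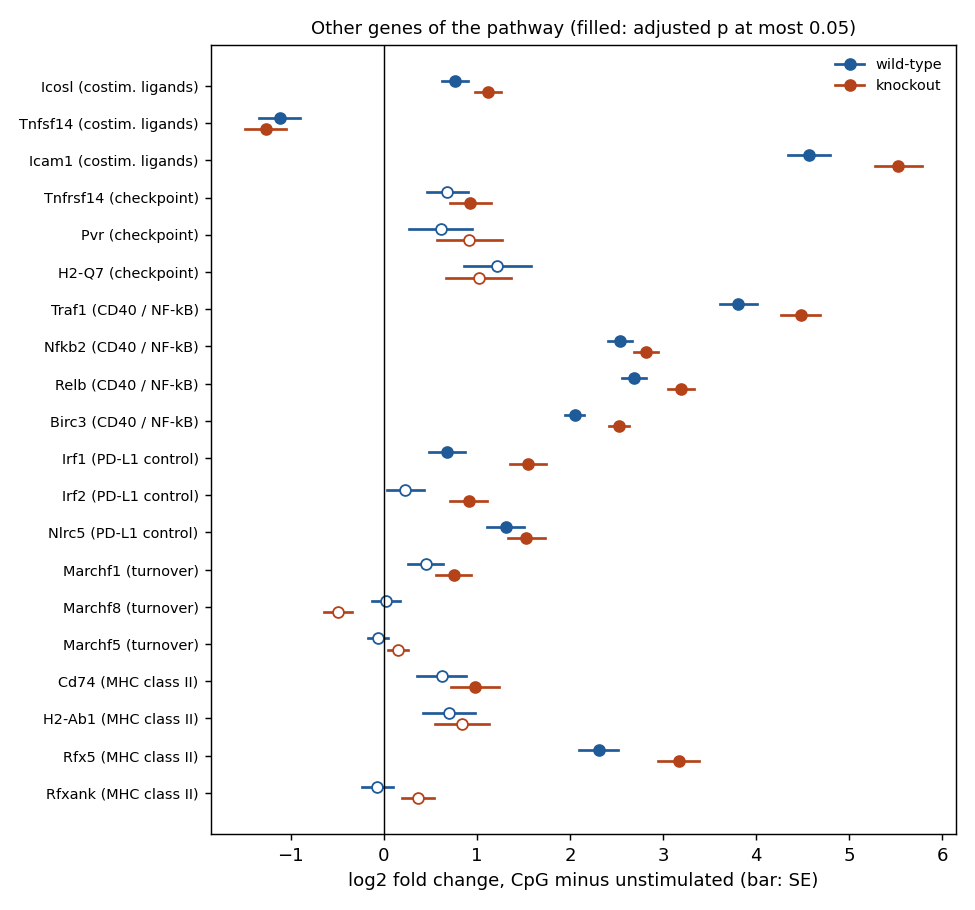
Log2 fold change with CpG (horizontal axis, bars are SE) of genes from 6 lists in wild-type and knockout cells, filled where the adjusted p is at most 0.05. Icam1 and Traf1 have the highest values, Tnfsf14 is below 0 in both genotypes, and most checkpoint, turnover and MHC class II genes named are open in at least 1 genotype.

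MHC class II genes, which present the antigen that costimulation accompanies, gave 1 rise in wild-type and 2 in knockout cells among 14 tested, beside 6.04% and 11.6% of all genes called, with medians of 0.41 and 0.47. Rfx5, a DNA-binding factor of MHC class II promoters, rose by 2.31 and 3.17 log2 units. Cd74, the invariant chain, had 0.62 (adjusted p = 0.232, and 0.00904 with wild-type libraries paired) in wild-type and 0.98 (adjusted p = 0.024) in knockout cells. H2-Ab1, a class II beta chain, had 0.70 (adjusted p = 0.000471 with wild-type libraries paired) in wild-type and 0.84 in knockout cells, and was called in neither by the fit to all 12 libraries without pairing. In the knockout it was called in 2 of 12 fits without 1 library (without unstimulated knockout 3, adjusted p = 0.0183, or CpG-treated knockout 1, adjusted p = 0.0217), by DESeq2 (0.04), without a filter (0.0352), with the replicate block (0.0305), with the block within genotype (9.62e-05), and without both libraries numbered 1 (0.0438) or 3 (0.0457). In wild-type cells it was also called in a fit of only the libraries compared (adjusted p = 0.00507). Rfxank, another factor of the same promoters, was lower in unstimulated knockout than wild-type cells (-0.85, adjusted p = 0.0103, and 0.0513 without unstimulated wild-type 1). The knockout call of Cd74, a gene B cells also express, was lost without unstimulated knockout 1 or 2 or CpG-treated knockout 2 or 3 (up to 0.103), without both numbered 2 (0.232), with scaling by library size alone (0.069), on curated transcripts (0.0638) and in a fit of only the libraries compared (0.121).

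Of the ubiquitin ligase genes listed for the turnover of CD83 and CD86, 3 of 4 were tested. Marchf1, whose product removes CD86 and MHC class II from the surface, rose in the knockout (0.75, SE 0.19, adjusted p = 0.0199) and had 0.45 (SE 0.19, adjusted p = 0.241) in wild-type cells, or 0.48 (adjusted p = 0.00708) with wild-type libraries paired. Its knockout call was lost without unstimulated knockout 2 or 3 or CpG-treated knockout 2 (up to 0.0954) and without both numbered 2 (0.186). Marchf8, a close relative, had 0.02 (adjusted p = 0.978) and -0.49 (adjusted p = 0.0551), and Marchf5 -0.06 and 0.15, and neither was called. In the knockout Marchf8 was called lower in 3 of 12 fits without 1 library (without unstimulated wild-type 3, adjusted p = 0.018, CpG-treated wild-type 1, 0.0452, or CpG-treated wild-type 3, 0.035), by DESeq2 (0.0285), without a filter (0.041), in a fit of only the libraries compared (0.0167) and with the block within genotype (0.000714).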

How the data were processed

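Estimated counts per RefSeq transcript, as RSEM makes them, were deposited by the authors and used without scaling. TPM and FPKM values were scaled by the authors before deposit, per the file headers. TPM served to compare levels between genes and FPKM to recheck their order. Tools were Bowtie2 and RSEM 1.2.28 with build GRCm39, per the submitters' processing notes. The sources used here do not give strandedness. Transcript counts were added up per gene and rounded, since 47.4% of the values were not whole. Of 15986 genes 15883 matched a symbol in the RefSeq annotation of GRCm38.p6.

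Genes were kept by filterByExpr (count 10, total 15), scaled by TMM and fitted with edgeR 4.0.16 in R 4.3.3 by a quasi-likelihood model with 1 mean per group over 12 libraries (8 residual degrees of freedom). Levels in CPM use TMM-scaled library sizes. The 95% intervals come from the standard error and the fit's t distribution. The script was tested on simulated data.

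Members and lists were chosen with earlier results of these data known. Beside the 5 members and Rab27a, up to 3 genes per function list were named by the smallest adjusted p with CpG, plus up to 3 called between genotypes, the 3 genes nearest in pattern to each member, and the most abundant gene of each marker list. Some genes picked this way are left unreported. Same-numbered wild-type libraries had residual correlations of 0.28, 0.4 and 0.44, each over the limit of 0.1, so wild-type values with a block within genotype are given where they change a call. The numbers come from the sample descriptions, where each follows the genotype and recurs in both treatments, and which do not say what they mark. DESeq2 1.42.0, other scalings and filters, curated transcripts, blocks, only the libraries compared and leaving out each library were the alternatives, and leaving out both knockout libraries of a number was added after the data were seen.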

Additional observations from a re-analysis of the deposited data

How the results depend on the processing

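For the 5 genes in the 5 comparisons, 532 of 569 alternative values kept their direction and their side of the threshold, 13 lost a call, 1 gained one and 23 changed sign. All 13 losses were the 2 calls of Cd86. With 1 library left out, Cd86 ran from -1.06 to -0.68 with CpG in the knockout and from 0.8 to 1.12 between unstimulated genotypes. The CpG effect of Cd86 in the knockout was -0.72 without both knockout libraries numbered 2 and -0.99 without both numbered 3. Its unstimulated genotype difference was 1.01 on curated transcripts, 0.83 without both numbered 1 and 1 without both numbered 2. The call gained was that of Cd80 in wild-type cells, 0.4 with the replicate block within genotype.

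Every change of sign was in a value not called. Between unstimulated genotypes Cd40 was -0.36 on curated transcripts, -0.44 without both knockout libraries numbered 3 and -0.42 to 1.02 with 1 library left out. Cd83 there was -0.05 with a replicate block, -0.04 and -0.24 without both numbered 2 or 3, and -0.22 to 0.3 with 1 library left out, where Cd80 was -0.05 to 0.41. With CpG the genotype difference of Cd83 was 0.14 without both numbered 1 and -0.59 to 0.11 with 1 library left out. The interaction ran from -0.47 to 0.94 for Cd40, from -0.64 to 0.09 for Cd83 and from -0.08 to 0.19 for Cd274, which was -0.11 without both numbered 3. The causes were not tested.

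Counts of called genes changed more. Wild-type CpG calls were 652, but 425 on curated transcripts, 1824 with the replicate block within genotype (1051 higher, 773 lower, against 512 and 140) and 425 to 758 with 1 library left out. Knockout CpG calls were 1257, but 2591 with that block (1380 higher, 1211 lower, against 818 and 439), 600 without both numbered 2 and 818 to 1347 with 1 library left out. Unstimulated genotype calls were 513, but 283 on curated transcripts, 341 and 300 without both numbered 1 or 2 and 278 to 604 with 1 left out. Genotype calls with CpG were 423, but 716 by DESeq2 (404 higher, 312 lower, against 184 and 239), 253 from only the libraries compared, 227 on curated transcripts, 250 and 824 without both numbered 2 or 3, and 234 to 699 with 1 left out. Interaction calls were 0, but 2 by DESeq2 and 13 with the block within genotype.

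Same-numbered knockout libraries had residual correlations of 0.61, 0.09 and 0.68, each the highest for its number. As 0.09 is under the limit of 0.1, the rule used did not take them as paired. Their B-cell marker sums were alike by number, at 8.23, 33.7 and 102 CPM without and 9.86, 39.3 and 116 CPM with CpG. Whether they are paired is therefore not settled, and knockout tests without a block may leave out a pairing. The block changed no call of the 5 genes other than Cd80. Among other named genes, Tnfrsf14 was -0.09, Nlrc5 -1.26 and Marchf8 -0.03 in wild-type cells and Relb 0.02 between unstimulated genotypes on curated transcripts. Marchf8 in wild-type cells was 0 under a filter of 1 CPM in 3 libraries and -0.16 to 0.14 with 1 library left out, and Rfxank -0.15 to 0.01. Depth limits Cd40, which had 19 and 20 counts in all in the unstimulated groups.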

Other observations

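The genes beside Cd86 in RefSeq order (GRCm38.p6, used for order only) were examined after its genotype difference had been seen. Slc15a2, a peptide transporter gene on one side of it, was higher in knockout than in wild-type cells by 2.25 log2 units without stimulus (SE 0.30, adjusted p = 0.000365 in edgeR) and by 1.96 with CpG (SE 0.30, adjusted p = 0.00135). The next 2 genes on that side, Iqcb1 and Golgb1, had 0.46 (adjusted p = 0.654) and 0.24 (adjusted p = 0.333) without stimulus. On the other side the stefin-family genes Stfa3, Stfa2 and Cstdc5, whose near-identical copies can share reads, had 0.69 (adjusted p = 0.349), 0.26 (adjusted p = 0.865) and 0.13 (adjusted p = 0.914). Cd80 lies on the same chromosome as Cd86 and had 0.11 (adjusted p = 0.854).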
